A study of Mus musculus with 14 samples.

Results

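This account covers the mRNAs of 9 mouse genes, the 8 cyclins that carry a dividing cell from G1 to mitosis and their partner kinase CDK1. They are the D-type cyclin genes Ccnd1, Ccnd2 and Ccnd3, the E-type genes Ccne1 and Ccne2, the A-type gene Ccna2, the B-type genes Ccnb1 and Ccnb2, and Cdk1. The genes were chosen by symbol and matched to Ensembl identifiers, and they are 9 of the 52636 genes in the deposited table. All 9 passed the filter on low values, at least 1 CPM in at least 2 libraries, as did 16157 of the 32273 genes above 0 in any library.

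The mRNAs were read by bulk RNA sequencing of tMEF cells, transformed fibroblasts of mouse embryos, in 14 libraries that form 7 groups of 2, named A and B. In every group the mouse telomere protein TRF1 had been substituted by TRF1 of the naked mole rat (NMR). GLAD stands for the triple substitution Glu69Lys, Val70Ala and Ala75Thr in NMR TRF1. TIN stands for Ala105Thr, and all 4 substitutions are joined in the double mutant GLAD/TIN. Each mutant was grown in atmospheric oxygen (normoxia) and in 1% oxygen (hypoxia), and the wild-type NMR TRF1 group was in normoxia. Wild-type cells in hypoxia were not analysed here. The medium, labelled DEM, held 10% serum from fetal calves in every group, with an antibiotic mix. The labels do not say whether a group is 1 clone or how long hypoxia lasted, nor whether A and B were separate cultures, so p-values rest on a spread between libraries that may be no more than technical.

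Values are CPM, counts scaled to a common library total by the authors and then matched between libraries by trimmed mean of M values (TMM). Reads recovered from the CPM steps numbered 11917019 to 15023565 per library, so 1 read was worth 0.0665 to 0.0839 CPM and a level of 0 allows up to 0.200 to 0.252 CPM, the worth of 3 reads, by counting error alone. Both wild-type libraries carry the word Mouse in their library names, while their titles and genotype labels say naked mole rat TRF1. They also stood apart in spread: the log2 difference between A and B had an SD over genes of 0.277 in the wild-type group and of 0.0894 to 0.162 in the mutant groups. Terf1, the gene that encodes TRF1, was read at 87.1 to 186 CPM in every library, and counts on mouse genes do not show whether those reads came from the mouse or the NMR sequence, so it checks no genotype. Car9, a carbonic anhydrase known to be induced by hypoxia, was at 3.28 to 35.9 CPM in the 8 normoxia libraries and at 197 to 630 CPM in the 6 hypoxia libraries. Of 11 fibroblast markers, 10 were detected at 1 CPM or more, with Thy1 at 0.202 CPM or less, and their sum ran from 7420 to 15900 CPM. Single markers varied unequally: Dcn ran from 12.9 to 1330 CPM, Postn from 1.75 to 256 CPM and Vim from 1700 to 2680 CPM.

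Cyclins bind and activate cyclin-dependent kinases (CDKs). D-type cyclins with CDK4 or CDK6 respond to growth factors and begin the inactivation of the retinoblastoma protein, cyclin E with CDK2 drives entry into S phase, cyclin A acts from S phase to early mitosis, and cyclin B with CDK1 drives mitosis. The E-type genes are classical targets of E2F factors, whereas Ccna2, Ccnb1, Ccnb2 and Cdk1 are held back in G1 and raised in G2 through promoter elements called the cell cycle homology region (CHR) and the CCAAT box, which are bound by the MuvB complexes and by NF-Y.

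RefSeq promoter windows (build GRCm38.p6, from 250 bases before to 50 after the start) were at hand for 5 of the 9 genes, Ccnb1, Ccnb2, Cdk1, Ccne1 and Ccnd3. The 250 bases before the start are shown for the pair of B-type cyclins and Cdk1, because cyclin B and CDK1 act as 1 kinase and their mRNAs did not all change alike under hypoxia, and for Ccne1, because its response differed between mutants. Each is written 5′ to 3′ on the gene's strand, which is the minus strand for all 4. Capitals mark CCAAT boxes (CCAAT as printed, and on the other strand its reverse complement ATTGG) and CHR-like cores, which were TTTGAA (or its reverse complement TTCAAA) and the variants TTTAAA and then TTCGAA, each of which is its own reverse complement. The windows lie at chr13:100786487-100786736, chr9:70421555-70421804, chr10:69352913-69353162 and chr7:38107491-38107740.
Ccnb1: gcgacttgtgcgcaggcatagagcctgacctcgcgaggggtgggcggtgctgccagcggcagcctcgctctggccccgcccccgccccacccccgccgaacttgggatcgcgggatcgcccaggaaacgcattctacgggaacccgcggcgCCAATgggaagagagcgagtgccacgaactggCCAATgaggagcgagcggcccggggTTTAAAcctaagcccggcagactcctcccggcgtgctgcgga
Ccnb2: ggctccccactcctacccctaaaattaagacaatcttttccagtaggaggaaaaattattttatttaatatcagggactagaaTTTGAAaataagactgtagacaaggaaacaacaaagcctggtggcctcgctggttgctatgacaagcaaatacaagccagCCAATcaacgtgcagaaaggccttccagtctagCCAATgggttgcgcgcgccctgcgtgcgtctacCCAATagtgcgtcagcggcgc
Cdk1: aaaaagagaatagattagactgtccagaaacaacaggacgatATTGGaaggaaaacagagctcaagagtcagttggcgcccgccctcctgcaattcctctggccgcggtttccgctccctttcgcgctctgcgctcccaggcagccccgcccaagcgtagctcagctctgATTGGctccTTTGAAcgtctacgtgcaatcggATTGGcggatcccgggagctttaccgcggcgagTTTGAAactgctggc
Ccne1: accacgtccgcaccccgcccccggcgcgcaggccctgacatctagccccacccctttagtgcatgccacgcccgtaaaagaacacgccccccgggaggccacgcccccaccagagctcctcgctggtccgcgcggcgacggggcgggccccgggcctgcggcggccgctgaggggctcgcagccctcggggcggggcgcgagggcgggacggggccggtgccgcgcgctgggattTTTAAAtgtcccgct

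The Ccnb1 window held 2 CCAAT boxes, whose first bases are 99 and 67 bases before the start, and a TTTAAA core at 42 bases before it. The Ccnb2 window held 3 CCAAT boxes, at 87, 54 and 21 bases before the start, and a TTTGAA core at 167 before it and another at position 5 after it. In Cdk1 there were 3 CCAAT boxes on the opposite strand, at 208, 80 and 48 bases before the start, with TTTGAA cores at 71 and 15 before it. Ccne1 had no CCAAT box and a single TTTAAA core at 15 bases before the start. Of all 32851 windows of this length, 37.4% held a CCAAT box and 28.8% a CHR-like core on either strand. The E2F-like core TTTNNCGC was matched 2 times in Cdk1, at 131 and 29 bases before the start, and 5.17% of all windows held it. It was not matched in the windows of Ccne1, Ccnb1, Ccnb2 or Ccnd3. A hypoxia response core, ACGTG or GCGTG on either strand, was matched once in Ccnb1, 2 times in Ccnb2, 4 times in Ccne1, once in Cdk1 and once in 1 of the 2 windows of Ccnd3, against 43.8% of all windows. No member window held an AP-1 site (TGANTCA, in 7.81% of all windows) or a CRE (TGACGTCA, in 1.79%). These matches describe letters, not bound sites.

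**Figure D1:**
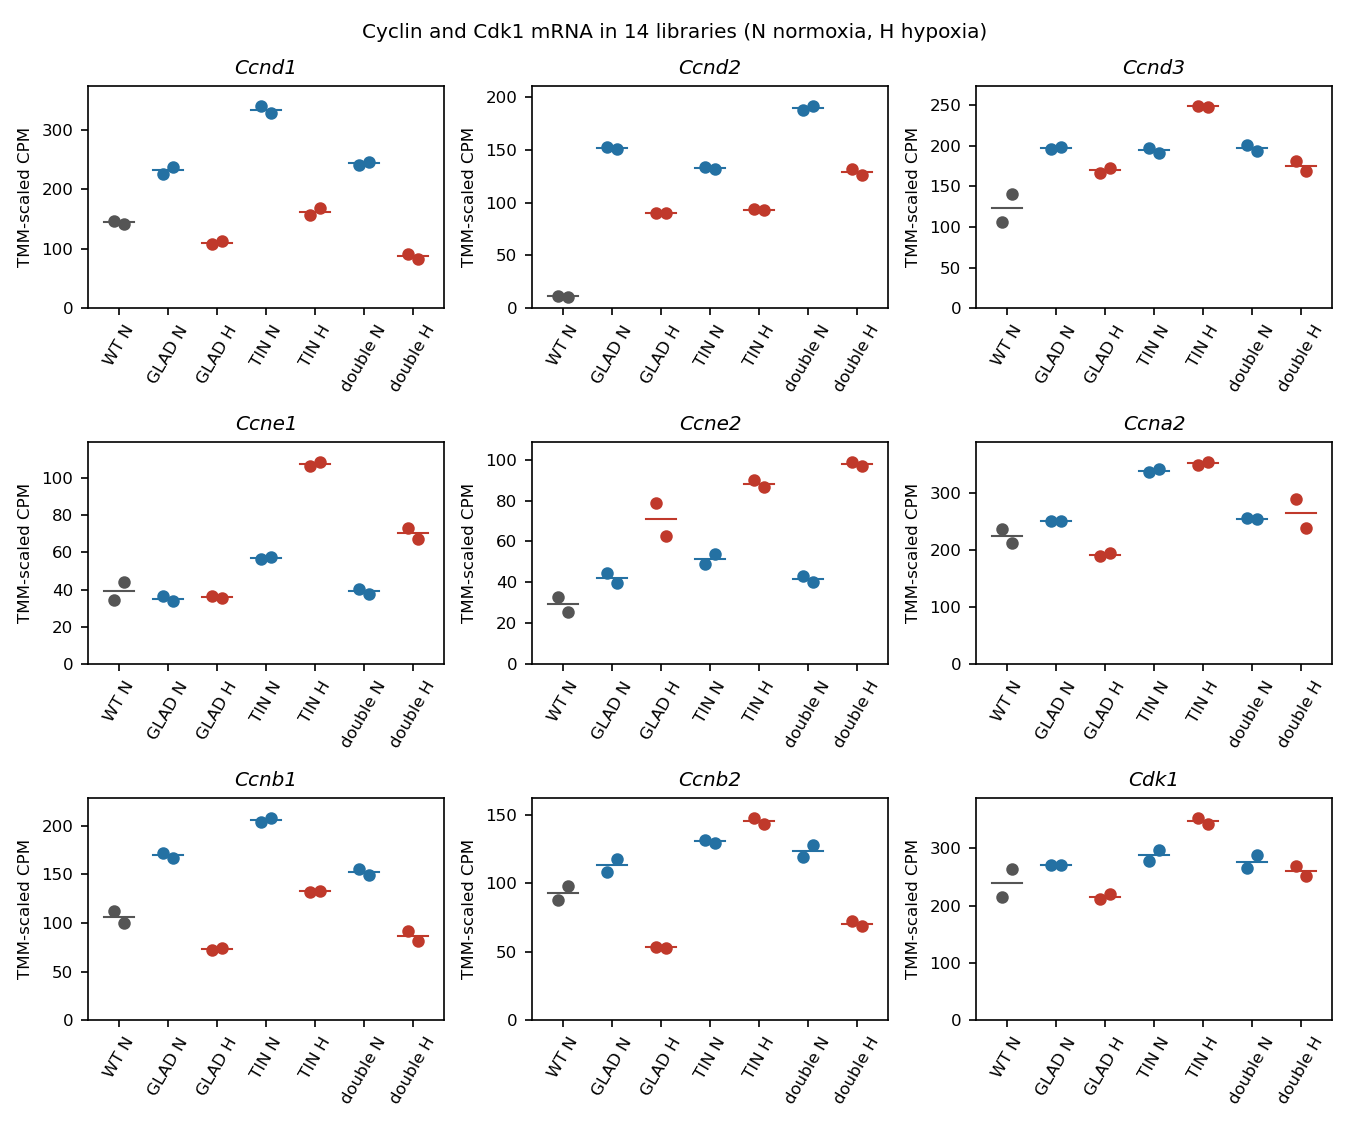
Level of each gene in TMM-scaled CPM (vertical axes, from 0) in the 14 libraries; points are libraries, short lines are the means of the 2 libraries, grey is wild type, blue is mutants in normoxia (N) and red is mutants in hypoxia (H). Ccnd2 is at 12.0 and 10.9 CPM in wild type and above 90 CPM in all 12 mutant libraries, and Ccnd1 is lower in hypoxia than in normoxia in each mutant.

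The first question is how hypoxia changed these mRNAs in each mutant. Ccnd1, Ccnd2 and Ccnb1 fell and Ccne2 rose in all 3 mutants. Ccne1, Ccnb2, Cdk1, Ccna2 and Ccnd3 were called in some mutants and not in others, and the difference itself is given below for each. In GLAD 1 of the 9 genes rose and 6 fell, in TIN 4 rose and 3 fell, and in the double mutant 2 rose and 4 fell. Over all 16157 genes tested, 22.1% rose and 26% fell in GLAD, 25.6% rose and 28.3% fell in TIN, and 25.8% rose and 30.2% fell in the double mutant. A call is an adjusted p under 0.05 in limma, with Benjamini-Hochberg adjustment over all genes tested, and changes are log2 differences of CPM + 0.5 with their standard errors. The median change of the 9 genes was −0.39 in GLAD, 0.16 in TIN and −0.17 in the double mutant, beside −0.04, −0.01 and −0.05 for all genes tested. In bulk RNA, fewer cells in a phase of the cycle and less mRNA per cell cannot be told apart.

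Among the D-type cyclins, Ccnd1 (GRCm38 chromosome 7, 144929931 to 144939925) encodes cyclin D1, the main growth-factor-driven cyclin of fibroblasts. It stood at 226 and 238 CPM in GLAD libraries A and B in normoxia and at 108 and 113 CPM in hypoxia. In TIN it went from 339.8 and 328 to 157 and 168 CPM, and in the double mutant from 241 and 247 to 91.2 and 83.2 CPM. Every hypoxia library was below every normoxia library of the mutants. Ccnd1 fell by 1.07 ± 0.07 (adjusted p = 1.2e-09) in GLAD, by 1.04 ± 0.07 (1.6e-09) in TIN and by 1.48 ± 0.07 (9.1e-12) in the double mutant, which is a 2.79-fold fall. The fall in the double mutant was larger than in TIN, with a difference of −0.44 ± 0.10 (adjusted p = 0.002), and larger than in GLAD, at −0.41 ± 0.10 (adjusted p = 0.01), although the latter call was lost without GLAD normoxia library A (adjusted p = 0.094) or GLAD hypoxia library B (0.052). TIN and GLAD were not told apart, with a 95% interval of the difference of −0.18 to 0.24. Ccnd1 shares 1100 exon bases with LTO1 on the opposite strand, and the strand setting of the authors' counts is not given in the sources used here, so reads there cannot be assigned to 1 of the 2 genes with certainty.

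Ccnd2 (chromosome 6, 127125162 to 127152193) encodes cyclin D2, a second D-type cyclin with the same kinase partners. It was at 153 and 150.8 CPM in GLAD in normoxia and 90.5 and 90.6 CPM in hypoxia. In TIN the values were 133 and 132 CPM in normoxia and 93.8 and 93.1 CPM in hypoxia. The double mutant went from 188 and 191 to 132 and 126 CPM, so hypoxia libraries lay below normoxia libraries of the same mutant in all 3. Ccnd2 fell by 0.74 ± 0.07 (adjusted p = 1.4e-07) in GLAD, by 0.50 ± 0.07 (1.1e-05) in TIN and by 0.55 ± 0.07 (3e-06) in the double mutant. No difference between mutants in this fall was called at the settings used throughout, but this depended on the processing. When a trend on gene length and GC content was removed, a check added with earlier results known, all 3 differences were called. TIN minus GLAD went from 0.24 (adjusted p = 0.077) to 0.55 (7.7e-05), the double mutant minus TIN from −0.05 (0.72) to −0.31 (0.0048), and the double mutant minus GLAD from 0.19 (0.24) to 0.24 (0.048). TIN minus GLAD was also called without either wild-type library (adjusted p = 0.02) and with only the groups compared (0.0046).

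Ccnd3 (chromosome 17, 47505051 to 47599691), the gene of cyclin D3, moved least of the D-type cyclins. It was at 198 and 191 CPM in TIN in normoxia and at 249 and 248 CPM in hypoxia, a rise of 0.35 ± 0.09 (adjusted p = 0.0042). In GLAD it went from 196 and 199 to 167 and 173 CPM, a change of −0.22 ± 0.09 (adjusted p = 0.067), and in the double mutant from 201 and 194 to 181 and 169 CPM, a change of −0.17 ± 0.09 (adjusted p = 0.13). The hypoxia libraries were below the normoxia libraries in both, but neither change was called at the settings used throughout. Both were called without either wild-type library (adjusted p = 0.0026 in GLAD and 0.012 in the double mutant), on CPM as deposited (−0.25, 0.028, and −0.22, 0.045) and with the length and GC trend removed (−0.31, 0.0042, and −0.28, 0.0063). The GLAD change was further called with only the groups compared (0.0032) and without double-mutant normoxia library A (0.031). The TIN effect differed from GLAD by 0.57 ± 0.13 (adjusted p = 0.0034), and the double mutant's differed from TIN by −0.53 ± 0.13 (adjusted p = 0.0043).

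The E-type cyclin genes rose in TIN and the double mutant, and Ccne2 rose in GLAD as well. Ccne2 (chromosome 4, 11191351 to 11204779), the gene of cyclin E2, was at 44.7 and 39.6 CPM in GLAD in normoxia and 78.9 and 62.8 CPM in hypoxia. It went from 48.9 and 53.7 to 89.9 and 86.7 CPM in TIN and from 42.9 and 40.4 to 98.7 and 97.0 CPM in the double mutant. All 6 hypoxia libraries were above all 6 normoxia libraries of the mutants. Ccne2 rose by 0.74 ± 0.12 (adjusted p = 4.1e-05) in GLAD, by 0.78 ± 0.12 (1.8e-05) in TIN and by 1.22 ± 0.12 (5.8e-08), or 2.33-fold, in the double mutant. The double mutant's rise exceeded that of TIN by 0.44 ± 0.16 (adjusted p = 0.035), a call lost without any 1 of the TIN and double-mutant libraries other than TIN normoxia library A. The call was also lost with no filter (adjusted p = 0.12), on CPM as deposited (0.069) and with no variance trend (0.09). The double mutant's rise was above that of GLAD by 0.49 ± 0.16 (adjusted p = 0.054), which was not called. That last difference was called without GLAD hypoxia library A or either wild-type library (adjusted p = 0.027, 0.0062 and 0.0061), with the length and GC trend removed (0.0043), with only the groups compared (0.011) and with a replicate block (0.029). Ccne2 shares 609 exon bases with Ints8 on the opposite strand.

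Ccne1 (chromosome 7, 38097984 to 38107534), the gene of cyclin E1, was not called in GLAD, where Ccne2 rose, and the difference between the 2 genes was not tested. Its GLAD libraries were at 36.4 and 33.8 CPM in normoxia and 36.7 and 35.6 CPM in hypoxia, and the groups overlapped. TIN rose from 56.1 and 57.7 to 106 and 108 CPM and the double mutant from 40.3 and 37.8 to 72.9 and 67.2 CPM. The change was 0.04 ± 0.10 (adjusted p = 0.76) in GLAD, with a 95% interval of −0.17 to 0.25. It was 0.91 ± 0.10 (adjusted p = 6.4e-07) in TIN and 0.83 ± 0.10 (adjusted p = 1.4e-06) in the double mutant. Tested directly, the effect was larger than in GLAD by 0.87 ± 0.14 (adjusted p = 0.00022) in TIN and by 0.79 ± 0.14 (adjusted p = 0.001) in the double mutant. TIN and the double mutant were not told apart, with a 95% interval of −0.37 to 0.22 for the difference.

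Of the mitotic genes, Ccnb1 (chromosome 13, 100778650 to 100786570) encodes cyclin B1, the main partner of CDK1 in mitosis. It was at 173 and 167 CPM in GLAD in normoxia and at 72.5 and 74.8 CPM in hypoxia, a 2.30-fold fall. TIN went from 204 and 208 to 132 and 133 CPM and the double mutant from 156 and 149 to 91.8 and 81.6 CPM. Hypoxia libraries were lower in every mutant. Ccnb1 fell by 1.20 ± 0.08 (adjusted p = 6.6e-10) in GLAD, by 0.63 ± 0.08 (2.2e-06) in TIN and by 0.81 ± 0.08 (6.7e-08) in the double mutant. GLAD fell further than TIN, by a difference of 0.57 ± 0.11 (adjusted p = 0.00074). GLAD also fell further than the double mutant, at 0.39 ± 0.11 (adjusted p = 0.022). This call was lost without any 1 of the 4 GLAD libraries, double-mutant normoxia library B or double-mutant hypoxia library A. It was also lost with no filter (adjusted p = 0.054) and with no variance trend (0.069).

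Ccnb2 (chromosome 9, 70407692 to 70421547), the gene of cyclin B2, fell in GLAD and the double mutant and not in TIN. Its GLAD libraries were at 108 and 118 CPM in normoxia and 53.7 and 53.1 CPM in hypoxia. The double mutant went from 119 and 128 to 72.2 and 68.6 CPM. In TIN the order was the other way, at 132 and 129.7 CPM in normoxia and 148 and 143 CPM in hypoxia. Ccnb2 fell by 1.08 ± 0.08 (adjusted p = 2.8e-09) in GLAD and by 0.81 ± 0.08 (6.5e-08) in the double mutant, while its change in TIN was 0.16 ± 0.08 (adjusted p = 0.096). Without either wild-type library the TIN change was called at the same size (adjusted p = 0.036), as it was with median-of-ratios scaling (0.041) and with only the groups compared (0.015). The difference of TIN from GLAD was 1.23 ± 0.11 (adjusted p = 3.3e-07), the largest of the 27 differences between mutants tested for the 9 genes, and that of the double mutant from TIN was −0.96 ± 0.11 (adjusted p = 2.6e-06). The pair of B-type cyclins, whose windows printed above both hold CCAAT boxes and CHR-like cores, both fell in GLAD and in the double mutant, whereas in TIN Ccnb1 fell and Ccnb2 was not called. The difference between the 2 genes within TIN was not tested.

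Cdk1 (chromosome 10, 69335146 to 69352938) encodes the mitotic kinase itself and had smaller changes in GLAD than its B-type partners. It was at 272 and 271 CPM in GLAD in normoxia and 212 and 219.6 CPM in hypoxia. In TIN it went from 279 and 297 to 353 and 343 CPM, while in the double mutant 265 and 288 CPM in normoxia overlapped with 269 and 252 CPM in hypoxia. Cdk1 fell by 0.33 ± 0.09 (adjusted p = 0.0038) in GLAD and rose by 0.27 ± 0.09 (adjusted p = 0.012) in TIN, and its change in the double mutant was −0.09 ± 0.09 (adjusted p = 0.41). The rise in TIN was not called without TIN hypoxia library A (adjusted p = 0.077) or TIN normoxia library A (adjusted p = 0.10). The TIN effect was above that of GLAD by 0.61 ± 0.12 (adjusted p = 0.0011), and the double mutant's was below that of TIN, at −0.36 ± 0.12 (adjusted p = 0.023). The latter call was lost without either TIN hypoxia library, TIN normoxia library A, or library B of the double mutant in normoxia or hypoxia. It was also lost with no filter (adjusted p = 0.074) and with no variance trend (0.071).

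Ccna2 (chromosome 3, 36564865 to 36572150) encodes cyclin A2, which binds CDK2 and CDK1. GLAD libraries were at 252 and 251 CPM in normoxia and 190.3 and 194 CPM in hypoxia. TIN libraries went from 337 and 342 to 349.7 and 354 CPM, and double-mutant libraries from 256 and 254 to 289 and 239.6 CPM, where library A of the hypoxia pair was high and the groups overlapped. Ccna2 fell by 0.39 ± 0.08 (adjusted p = 0.00076) in GLAD. Its change was 0.05 ± 0.08 (adjusted p = 0.6) in TIN and 0.04 ± 0.08 (adjusted p = 0.66) in the double mutant. TIN differed from GLAD by 0.44 ± 0.12 (adjusted p = 0.0071). The double mutant differed from GLAD by 0.43 ± 0.12 (adjusted p = 0.017), a call lost without any 1 normoxia library of these mutants or GLAD hypoxia library A. Without double-mutant hypoxia library A the difference was 0.295 and not called. The call was also lost with no filter (adjusted p = 0.062) and with no variance trend (0.069). Ccna2 shares 510 exon bases with Exosc9 on the opposite strand.

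**Figure D2:**
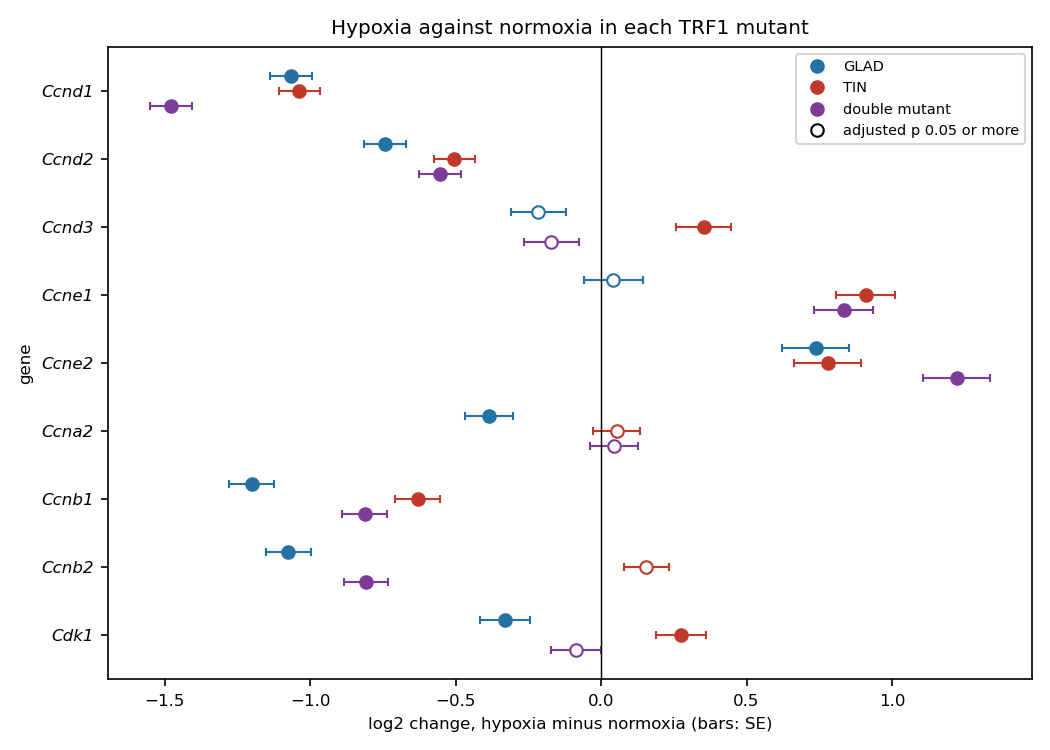
Log2 change from normoxia to hypoxia (horizontal axis, bars are standard errors) of each gene in the GLAD, TIN and double mutants, 2 libraries per group; filled points have an adjusted p under 0.05. Ccnd1, Ccnd2 and Ccnb1 lie left of 0 and Ccne2 right of 0 in all 3 mutants, and Ccnb2 reaches −1.08 in GLAD and 0.16 in TIN.

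Counted over the set, the hypoxia effect differed between TIN and GLAD in 6 of the 9 genes, all in the direction of higher in TIN, against 33.9% of all genes tested in either direction. The double mutant differed from GLAD in 4 genes, against 14.5%, and from TIN in 5, against 42.8%. The 3 differences share groups and are not independent of one another. The count of 6 was 6 or 7 whichever library was left out, whereas that of 4 ran from 1 to 7 and that of 5 from 3 to 5.

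The next comparison sets each mutant against wild-type NMR TRF1 in normoxia. All 9 genes were higher in TIN than in wild type, 7 in the double mutant and 6 in GLAD, and none was called lower. The share of all genes tested that was higher was 31.4% in TIN, 28.3% in the double mutant and 27% in GLAD, and the share that was lower 28.8%, 28.6% and 28.2%. The 3 comparisons share the 2 wild-type libraries. Their standard errors come from a spread pooled over all groups. Over genes, the log2 difference between A and B had an SD of 0.277 in wild type and 0.0894 to 0.162 in the mutant groups. P-values against wild type may therefore be too small, above all for genes whose wild-type pair was wide. Genotype, cell line and library naming go together in the wild-type group and cannot be told apart. Summed fibroblast markers were also highest there, at 15200 to 15900 CPM against 7420 to 11100 in the mutants in normoxia, and their part in the differences was not tested.

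Ccnd2 stood out by its size. Wild-type libraries A and B had 12.0 and 10.9 CPM, against 132 to 191 CPM in the 6 mutant libraries in normoxia and 90.5 to 131.8 CPM in the 6 in hypoxia. It was 12.7-fold higher than wild type in GLAD, a log2 difference of 3.67 ± 0.07 (adjusted p = 2.3e-17). In TIN it was 11.1-fold higher, at 3.48 ± 0.07 (adjusted p = 7.7e-18), and in the double mutant 15.9-fold higher, at 3.99 ± 0.07 (adjusted p = 4.4e-18). Leaving out any 1 library kept the log2 difference between 3.60 and 3.74 in GLAD, 3.41 and 3.54 in TIN and 3.92 and 4.06 in the double mutant. The antisense transcript Gm43126 shares 372 exon bases with Ccnd2 and was at 1.45 to 15.6 CPM.

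The other D-type genes were also higher in the mutants. Wild-type libraries had 146 and 143 CPM of Ccnd1, below all 6 mutant libraries in normoxia, and the difference was 0.68 ± 0.07 (adjusted p = 3.4e-07) in GLAD. It was 1.21 ± 0.07 (adjusted p = 5.4e-11) in TIN and 0.75 ± 0.07 (adjusted p = 7.3e-08) in the double mutant. Under hypoxia GLAD and the double mutant fell below that wild-type normoxia level and TIN stayed above it. Ccnd3 was at 106 and 140.2 CPM in wild type, a wide pair. It lay 0.70, 0.67 and 0.69 higher in GLAD, TIN and the double mutant (adjusted p = 7.5e-06, 6.8e-06 and 6.4e-06). These p-values use the spread pooled over groups, so they do not measure the width of the wild-type pair. Both wild-type libraries were below all 6 mutant libraries in normoxia. Ccnd3 shares 361 exon bases with Bysl on the opposite strand.

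For the E-type genes, wild type had 32.8 and 25.7 CPM of Ccne2, which was higher by 0.53 in GLAD (adjusted p = 0.00085), 0.81 in TIN (7.9e-06) and 0.51 in the double mutant (0.00098). Ccne1 was at 34.4 and 44.2 CPM in wild type and was called higher in TIN alone, by 0.54 ± 0.10 (adjusted p = 0.00015). Its difference in the double mutant was 0.00 ± 0.10 (adjusted p = 0.99). In GLAD the difference was −0.15 ± 0.10 (adjusted p = 0.22), and without wild-type library A it was called lower, at −0.33 (adjusted p = 0.0024).

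Among the mitotic genes, Ccnb1 was at 112 and 99.6 CPM in wild type and higher by 0.68, 0.96 and 0.52 in GLAD, TIN and the double mutant (adjusted p = 9e-07, 5.1e-09 and 1.6e-05). Ccnb2 was at 88.2 and 98 CPM in wild type and higher by 0.28, 0.49 and 0.41 (0.0048, 2.5e-05 and 0.00019). Ccna2, at 237 and 212 CPM in wild type, was higher in TIN by 0.59 ± 0.08 (adjusted p = 5.1e-06). Its differences of 0.16 ± 0.08 (adjusted p = 0.098) in GLAD and 0.18 ± 0.08 (adjusted p = 0.061) in the double mutant were not called. Both were called on CPM as deposited (adjusted p = 0.019 each), without wild-type library A (0.24, 0.015, and 0.27, 0.0081) or without either double-mutant hypoxia library (0.048 and 0.026), and the double mutant's also with median-of-ratios scaling (0.046) or without GLAD hypoxia library A (0.048). Cdk1 was at 214.8 and 264.9 CPM in wild type, below every mutant library in normoxia, with library B only just below the lowest (265.4 CPM). It was higher by 0.27 in TIN (0.011) and 0.21 in the double mutant (0.042), and neither call held without wild-type library A (0.12, adjusted p = 0.17, and 0.06, adjusted p = 0.49). The TIN call was also lost without TIN normoxia library B, and that of the double mutant without any 1 of the TIN libraries, double-mutant normoxia library B or GLAD hypoxia library B. Neither was called with only the groups compared (adjusted p = 0.087 and 0.11), and that of the double mutant was also lost with no filter (0.11), no variance trend (0.1) or the length and GC trend removed (0.19). In GLAD the Cdk1 difference was 0.19 ± 0.09 (adjusted p = 0.073), and it was called without wild-type library B (0.34, 0.00068), without double-mutant normoxia library A (0.031) or GLAD hypoxia library A (0.033), on CPM as deposited (0.013) and with median-of-ratios scaling (0.045).

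**Figure D3:**
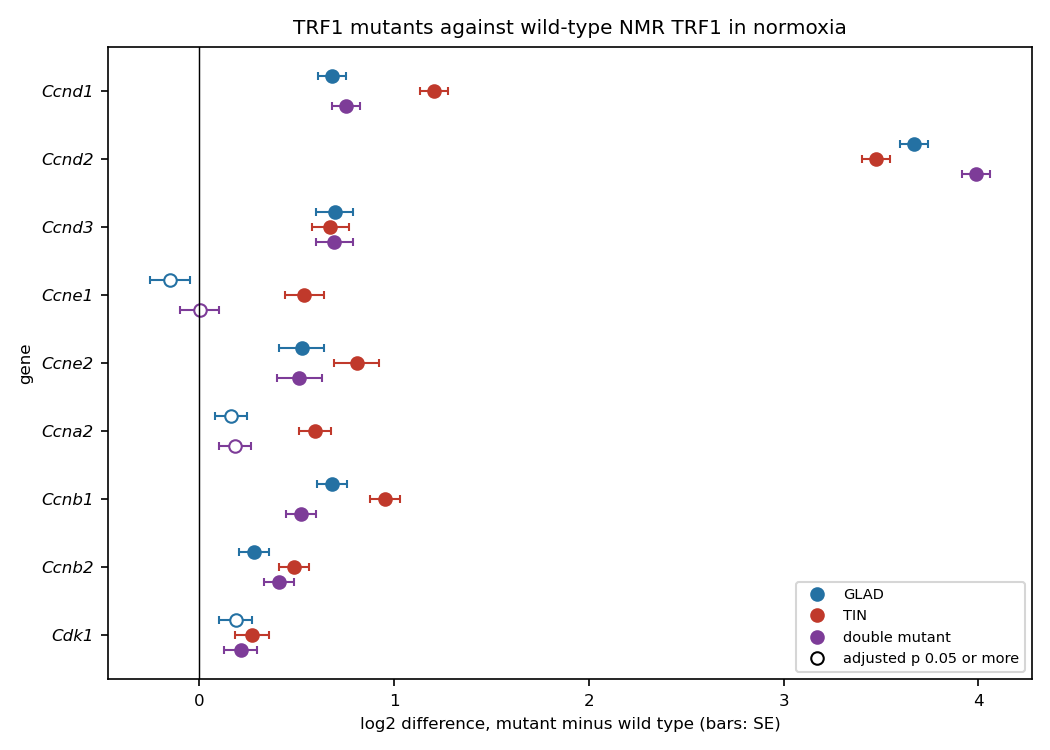
Log2 difference from wild-type NMR TRF1 in normoxia (horizontal axis, bars are standard errors) of each gene in the GLAD, TIN and double mutants, 2 libraries per group; filled points have an adjusted p under 0.05. Ccnd2 lies between 3.48 and 3.99 in all 3 mutants, and the other 8 genes lie between −0.15 and 1.21.

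Set against each other in normoxia, TIN differed from GLAD in 7 of the 9 genes, against 51.7% of all genes tested. Ccne1 led with 0.69 ± 0.10 (adjusted p = 1.5e-05), then Ccnd1 with 0.53 ± 0.07 (adjusted p = 6.8e-06) and Ccna2 with 0.43 ± 0.08 (adjusted p = 0.00023). The other 4 were Ccnb1, Ccnb2, Ccne2 and, lower in TIN, Ccnd2 at −0.19 ± 0.07 (adjusted p = 0.03), which was −0.10 (adjusted p = 0.14) with the length and GC trend removed, and these 4 depended on single libraries. Ccnb1 was lost without either GLAD normoxia library, Ccnd2 without GLAD normoxia library A or either TIN normoxia library, Ccnb2 without any of these 4, double-mutant normoxia library A or GLAD hypoxia library A, and Ccne2 without any mutant library other than GLAD hypoxia library B. Ccne2 was also lost with a pseudocount of 0.1 CPM (adjusted p = 0.05), no filter (0.15), CPM as deposited (0.11), median-of-ratios scaling (0.097) or no variance trend (0.11). The last 2 of these settings also lost Ccnb2 (0.07 and 0.06). The double mutant differed from GLAD in 1 gene, against 35.7%, with Ccnd2 higher by 0.32 ± 0.07 (adjusted p = 0.0019). It differed from TIN in 6, against 48.7%, with Ccnd2 higher by 0.51 ± 0.07 (adjusted p = 9.9e-06) and Ccne1 lower, at −0.54 ± 0.10 (adjusted p = 0.00024), followed by Ccnd1, Ccnb1, Ccna2 and Ccne2, all lower, the last of these a call lost without any 1 mutant library other than GLAD hypoxia library B. That Ccne2 call was also lost with no filter (adjusted p = 0.13), CPM as deposited (0.068), median-of-ratios scaling (0.089) or no variance trend (0.099).

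In hypoxia TIN differed from GLAD in 8 of the 9 genes, all higher in TIN, against 63.1% of all genes tested. Ccne1 was 2.94-fold and Ccnb2 2.71-fold higher, at log2 differences of 1.56 ± 0.10 (adjusted p = 4.3e-10) and 1.44 ± 0.08 (adjusted p = 2.9e-11). Ccnd2 was the exception, at 0.04 ± 0.07 (adjusted p = 0.6), and with the trend on length and GC content removed it became 0.45 (adjusted p = 2e-06). The double mutant differed from GLAD in 8, against 42.5%, with Ccne1 higher by 0.94 ± 0.10 (adjusted p = 8.1e-07) and Ccnd1 the only one lower, at −0.34 ± 0.07 (adjusted p = 0.00089). It differed from TIN in 8, against 64%, with Ccnb2 lower, at −1.04 ± 0.08 (adjusted p = 2.5e-09), Ccnd1 lower, at −0.90 ± 0.07 (adjusted p = 7.2e-09), and Ccnd2 the only one higher, at 0.46 ± 0.07 (adjusted p = 1.9e-05). With the length and GC trend removed this Ccnd2 difference was 0.11 and no longer called (adjusted p = 0.11). The Ccne2 difference between TIN and GLAD was lost without GLAD library B or either TIN library in hypoxia. It was also lost with no filter (adjusted p = 0.075) and with no variance trend (0.059). Between the double mutant and GLAD, Ccne2 was lost without GLAD hypoxia library B, and Cdk1 without hypoxia library A of either mutant. Ccnb1 was lost without either GLAD hypoxia library or double-mutant hypoxia library A. With no variance trend Cdk1 (adjusted p = 0.057) and Ccnb1 (0.055) were lost as well, and with no filter Cdk1 (0.055).

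The order of the groups differed from gene to gene. TIN in hypoxia had the highest mean of Ccna2, Ccnb2, Ccnd3, Ccne1 and Cdk1, TIN in normoxia of Ccnb1 and Ccnd1, and the double mutant of Ccnd2 in normoxia and of Ccne2 in hypoxia. GLAD in hypoxia had the lowest mean of Ccna2, Ccnb1, Ccnb2 and Cdk1, and wild type the lowest of Ccnd2, Ccnd3 and Ccne2. The highest mean was 16.5 times the lowest for Ccnd2, 3.83 times for Ccnd1, 3.35 times for Ccne2 and 3.06 times for Ccne1. For Ccnb1 it was 2.79 times, for Ccnb2 2.73, for Ccnd3 2.02, for Ccna2 1.83 and for Cdk1 1.61. Libraries of neighbouring groups overlapped most for Cdk1, where TIN, the double mutant and GLAD in normoxia formed a run without separation, as did GLAD, the double mutant and TIN in normoxia for Ccnd3. No neighbours overlapped for Ccnb1, Ccnb2, Ccnd1 or Ccnd2.

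Per kilobase of exon, which allows levels of different genes to be compared, Ccnd2 was at 1.22 CPM per kb in wild type and at 9.62 to 20.1 in the mutants. Ccnd1 was at 30.7 CPM per kb in wild type, so the D-type cyclin mRNA of wild type was mostly Ccnd1 and Ccnd3, the latter at 14.0. In the double mutant in hypoxia the 3 were at 18.5, 13.7 and 19.95 CPM per kb for Ccnd1, Ccnd2 and Ccnd3. Ccne1 was above Ccne2 in wild type, at 14.8 against 8.37 CPM per kb, and below it in GLAD in hypoxia, at 13.6 against 20.3. It was also below Ccne2 in the double mutant in hypoxia, at 26.3 against 28.0 CPM per kb. Ccnb2 was above Ccnb1 in every group. Exon lengths come from the GENCODE annotation and not from the isoforms these cells use.

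The other genes of the cell-cycle engine were read from lists of known members, and those named as higher or lower, or as rising or falling, all had an adjusted p under 0.05. A gene was named for a mutant only if it was among the up to 2 largest called rises or falls of its list there. A mutant that is not named for a gene may therefore also have been called. The hypoxia counts of each list are to be read beside the shares of all genes tested. These were 22.1% up and 26% down in GLAD, 25.6% and 28.3% in TIN, and 25.8% and 30.2% in the double mutant. Of 28 other genes of the G1/S transition, 18 rose and 2 fell in GLAD under hypoxia, 20 rose and 4 fell in TIN, and 17 rose and 3 fell in the double mutant, with medians of 0.36, 0.40 and 0.30. Slbp, which binds histone mRNA, rose by 0.86, 1.21 and 1.19 in GLAD, TIN and the double mutant. Cdc6, which loads the replicative helicase, rose by 1.097 in GLAD and 1.04 in the double mutant. Tk1, a thymidine kinase, fell by 0.22 in GLAD (adjusted p = 0.041) and by 0.48 in the double mutant.

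Of 29 other late cell-cycle genes, most fell in GLAD and more rose than fell in TIN. In GLAD 3 rose and 20 fell, in TIN 15 rose and 6 fell, and in the double mutant 10 rose and 8 fell, with medians of −0.36, 0.23 and 0.07. Tested directly, the hypoxia effect was higher in TIN than in GLAD for 20 of the 29 and lower for none. Over all 16157 genes tested it was higher in TIN for 2644 and lower for 2828. Plk1, a mitotic kinase, fell in all 3, by 1.13, 0.39 and 0.88. Mki67, the gene of the proliferation antigen Ki-67, rose in all 3, by 1.02, 0.97 and 1.48. Kif23, a kinesin of cytokinesis, rose by 0.91 in TIN, from 171 and 164 to 312 and 319 CPM.

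Of the 11 MuvB, Myb, FoxM1 and NF-Y genes, whose products bind CHR and CCAAT elements or act with them, 7 rose and 1 fell in GLAD, 4 rose and 1 fell in TIN, and 8 rose and none fell in the double mutant. Mybl2, the gene of B-Myb, went from 27.7 and 31.0 to 71.3 and 76.9 CPM in GLAD, a rise of 1.32 ± 0.09 (adjusted p = 2.2e-09). Foxm1, a factor that activates mitotic genes, fell by 0.34 ± 0.08 (adjusted p = 0.0021) in GLAD, the only fall of the list there. Nfyb, a subunit of NF-Y, rose by 1.43 in the double mutant. Of 13 Rb and E2F genes, 7 rose and 1 fell in GLAD, 4 rose and 3 fell in TIN, and 7 rose and 1 fell in the double mutant. E2f7, an E2F that represses, rose by 0.90, 0.78 and 1.42.

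Of the 7 genes of CDK-inhibitor proteins, 1 rose and 5 fell in GLAD, 3 rose and 1 fell in TIN, and 1 rose and 3 fell in the double mutant. Cdkn1a, which encodes p21, an inhibitor of cyclin E and cyclin A complexes, was at 217 and 214 CPM in GLAD in normoxia and 254 and 255 CPM in hypoxia. It went from 32.4 and 27.4 to 244 and 228 CPM in TIN and from 87.8 and 87.7 to 453 and 424 CPM in the double mutant. The rises were 0.24, 2.97 and 2.31 (adjusted p = 0.029, 4.6e-15 and 2.5e-13), so the smallest was in GLAD. Cdkn1b, the gene of p27, fell by 0.81 in TIN. Cdkn2d, an inhibitor of CDK4 and CDK6, fell by 0.85 in GLAD and rose by 0.55 in TIN.

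Of 7 genes of CDK1 and CDK2 phosphatases, inhibitory kinases and Cks subunits, 2 rose and 4 fell in GLAD, 2 rose and 2 fell in TIN, and 2 rose and 3 fell in the double mutant. Cdc25b, a phosphatase that activates CDK1, fell in all 3, by 0.90, 0.75 and 1.08. Cdc25a, which activates CDK2, and Pkmyt1, which inhibits CDK1, rose in all 3, by 0.41, 0.66 and 0.78 for Cdc25a and 0.48, 0.77 and 0.37 for Pkmyt1. Of 23 genes of the ubiquitin ligases that degrade cyclins and of their regulators, 4 rose and 11 fell in GLAD. In TIN 6 rose and 7 fell, and in the double mutant 7 rose and 9 fell. The TIN counts were near the shares of all genes tested there, 25.6% up and 28.3% down. Cdc20, an activator of the anaphase-promoting complex, fell by 1.04 in GLAD, and Ube2c, its ubiquitin-conjugating enzyme, by 1.16 in GLAD and 1.17 in the double mutant.

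Of the 29 other cyclins and CDKs that could be tested of 31 listed, 12 rose and 8 fell in GLAD, 7 rose and 11 fell in TIN, and 12 rose and 8 fell in the double mutant. Cdk6, a kinase partner of the D-type cyclins, went from 72.1 and 78.4 to 21.9 and 27.8 CPM in the double mutant. It fell by 0.88, 1.09 and 1.59 in GLAD, TIN and the double mutant, and in normoxia it was higher than in wild type by 1.23, 1.5 and 1.07, directions that it shares with Ccnd1 and Ccnd2. Ccng2, the gene of cyclin G2, known for high levels in arrested cells, rose by 1.49, 1.71 and 2.04. Ccnf, which encodes an F-box cyclin of G2, fell by 0.87 in GLAD, from 71.1 and 71.3 to 39.5 and 38.1 CPM.

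Of 20 genes of mitogen pathways and their targets, 16 rose and 1 fell in GLAD under hypoxia, 13 rose and 3 fell in TIN, and 10 rose and 4 fell in the double mutant. The list mixes factors of these pathways with genes that the pathways induce, so its counts do not measure the input to D-type cyclins. Fos, a subunit of AP-1, rose by 2.57 in GLAD and 2.23 in TIN, and Jund by 2.15 in TIN. Ccn2, a target of YAP, rose by 2.58 in GLAD and 2.28 in the double mutant. Against wild type in normoxia, Dusp6, a phosphatase induced by ERK signalling, was higher by 2.66 in TIN and 3.52 in the double mutant, and the AP-1 subunit Fosl1 by 1.19, 2.58 and 2.53 in GLAD, TIN and the double mutant. Spry4 was higher by 1.11 in GLAD. Ccn1 and Ccn2, both YAP targets, were lower in the double mutant, at −3.49 and −3.72. Ccn2 was also lower in GLAD, at −2.09, and Ccn1 in TIN, at −1.82. Fos was lower in GLAD, at −2.64, and Axin2 in TIN, at −3.15.

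In the same comparison with wild type, 15 of the 29 other late cell-cycle genes were higher and 2 lower in GLAD, 21 higher and none lower in TIN, and 18 higher and none lower in the double mutant. Of the 28 other G1/S genes 5 were higher and 12 lower in GLAD, 17 higher and 2 lower in TIN, and 15 higher and 1 lower in the double mutant. Over all genes tested, 27% were higher and 28.2% lower in GLAD. The shares were 31.4% and 28.8% in TIN and 28.3% and 28.6% in the double mutant. Kif11, a mitotic kinesin, was higher by 1.04 in TIN and 0.75 in the double mutant. E2f8, a repressive E2F, was higher by 1.39 and 1.27 in the same mutants. Cdkn1a was higher than wild type by 1.05 in GLAD and lower in TIN, at −1.78.

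**Figure D4:**
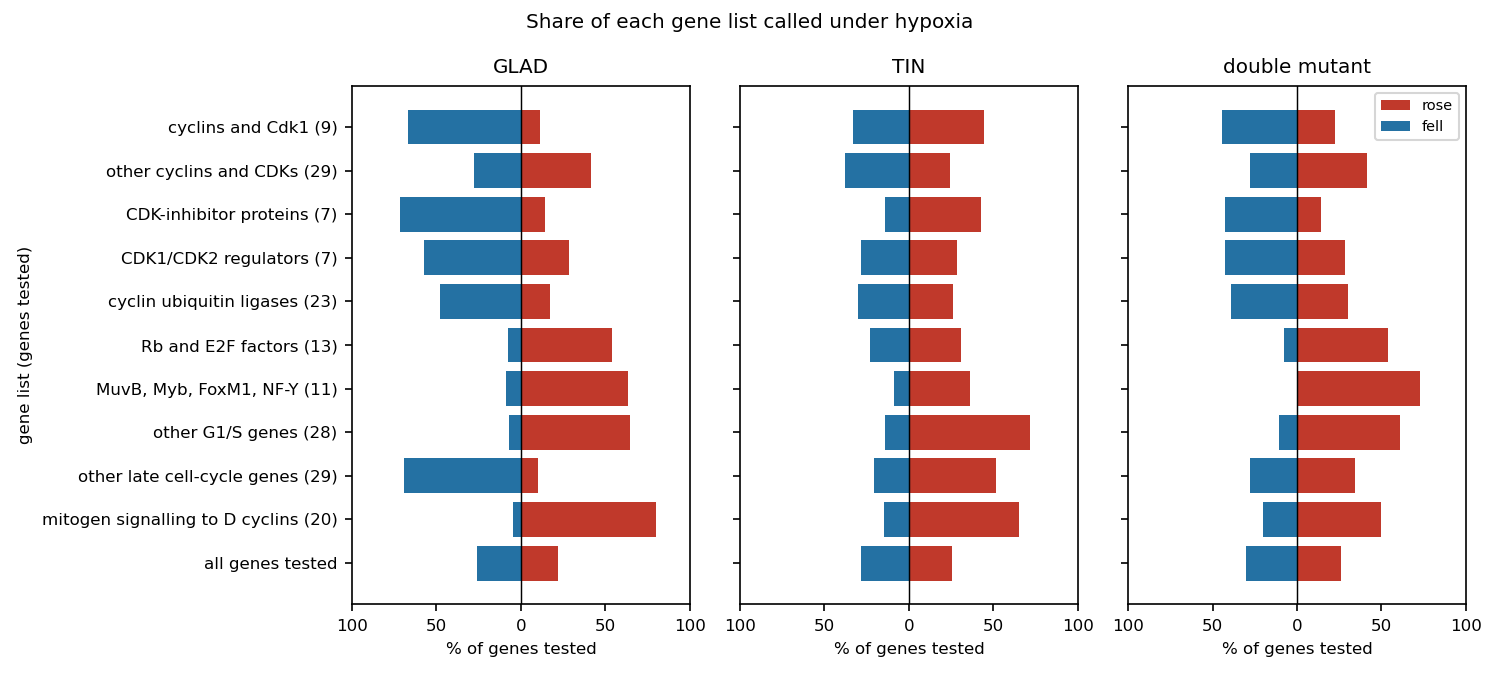
Share of the genes tested in each cell-cycle list that rose (right, red) or fell (left, blue) under hypoxia in the GLAD, TIN and double mutants, in percent, with all 16157 genes tested at the bottom. Of the 29 late cell-cycle genes 20 fell in GLAD and 15 rose in TIN, and of the 28 G1/S genes 17 to 20 rose in each mutant.

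Across the 14 libraries, the genes whose log2 level followed each member most closely were named by Pearson's r among 11957 genes with a mean of at least 5 CPM. These libraries share groups and oxygen, so r is a description. Ccna2 was followed by Rbbp7 (r = 0.963), Foxm1 (0.962) and Ccnf (0.954), Ccnb2 by Tsen34 (0.969), Tuba1c (0.965) and Dlgap5 (0.964), and Cdk1 by Pmf1 (0.966), Ppp1r18 (0.962) and Rccd1 (0.959). Ccnb1 was followed by Tnfaip8l1 (0.981), Snn (0.968) and Tmem138 (0.953). Ccnd1 was followed by LTO1 (0.977), which overlaps it, Arhgef40 (0.976) and Snx12 (0.974). Ccnd2 was nearest to Fez1 (0.987), Tns1 (0.983) and Rassf3 (0.983), and Ccnd3 to Crip1 (0.963), Morn4 (0.955) and Coro1a (0.951). Ccne1 was nearest to Tomm6 (0.982), Gm21981 (0.982) and Spc25 (0.977), and Ccne2 to Rbm15 (0.988), Fastkd3 (0.979) and E2f7 (0.978).

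Among the members themselves, Ccnb1 ran closest to Ccnd1 (r = 0.946) and then to Ccnb2 (0.862), Ccna2 closest to Cdk1 (0.847), and Ccnb2 to Ccnb1 and Cdk1 (0.828). Ccne1 and Ccne2 correlated at 0.679. Ccne2 and Ccnd1, which moved in opposite directions under hypoxia, had the lowest r of the 36 pairs, −0.504.

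Among markers of other cell types, 4 of 6 blood cell and 4 of 6 epithelial genes stayed under 1 CPM in every library. So did 3 of 4 muscle, 1 of 4 endothelial and 1 of 4 neural genes. Summed blood cell markers were 23.9 to 45.4 CPM in the normoxia libraries and 56.1 to 68.9 CPM in the hypoxia libraries. All but a trace of it came from Cd68 (7.05 to 44.6 CPM) and Csf1r (15.3 to 29 CPM). Ptprc was at 0.103 CPM or less and Cd3e at 0 in all 14 libraries. Summed neural markers were highest in GLAD in normoxia, at 387 to 398 CPM, and 143 to 178 CPM in wild type, with the other groups between 166 and 319 CPM. They came mainly from Map2 (132 to 393 CPM), with Tubb3 at 4.24 to 60.6 CPM and Sox10 at 0.201 CPM or less. Epithelial markers summed to 0.513 to 3.99 CPM, muscle markers to 0.756 to 5.85 CPM and endothelial markers to 1.5 to 14.7 CPM, highest in GLAD under both oxygen levels (13.7 to 14.7 CPM) and mainly from Tek. Their part in the results above was not tested. The pseudogenes Ccnb1-ps, Ccnb2-ps and Ccnd3-ps reached 0.65, 0.45 and 0.25 CPM at most.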

How the data were processed

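RNA of 14 libraries was read as TruSeq libraries on an Illumina NovaSeq, per the labels' protocols, and the submitters' processing notes name STAR, HTSeq, GRCm38.p4 and mm10 without versions. The authors deposited 1 table of CPM per gene, whose values are whole multiples of a step after an upward rounding, so CPM here are not raw counts. No count test was run, and floors of 3 reads cover counting error only. CPM were scaled by TMM (trims of 30% and 5%), genes under 1 CPM in all but 1 library were left out, and log2(CPM + 0.5) was fitted in limma 3.58.1 (R 4.3.3) with 7 group means, 7 residual and 11 prior degrees of freedom and a variance trend. Fold changes are on that log2 scale, which understates the change of low genes. P-values were adjusted by Benjamini-Hochberg over 16157 genes in each of 15 comparisons, and the fit was tested on simulated data. The members and lists were chosen with earlier results of these data known. All 9 members are named. From each other list up to 2 called genes with the largest rise and up to 2 with the largest fall, at a mean of at least 5 CPM, qualified in each hypoxia effect and comparison with wild type. Alternatives were other pseudocounts, no filter, other scalings, a replicate block, no variance trend, only the groups compared, a length and GC trend removed, and each library left out.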

Additional observations from a re-analysis of the deposited data

Results flagged for a closer look

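Each of these results is a difference between 2 mutants in the log2 change under hypoxia, tested by itself as an interaction in limma and past an adjusted p of 0.05. Between TIN and GLAD, 6 genes had a higher effect in TIN: Ccnb2 by 1.23, Ccne1 by 0.867, Cdk1 by 0.605, Ccnb1 by 0.571, Ccnd3 by 0.570 and Ccna2 by 0.439. All 6 calls were kept in each of the 14 fits that leave out a library.

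Between the double mutant and GLAD, the effect was higher in the double mutant for Ccne1 (0.792), Ccna2 (0.430) and Ccnb1 (0.389) and lower for Ccnd1 (−0.411). Of these, Ccne1 alone was called whichever library was left out. Between the double mutant and TIN, the effect was lower in the double mutant for Ccnb2 (−0.963), Ccnd3 (−0.525), Ccnd1 (−0.442) and Cdk1 (−0.359) and higher for Ccne2 (0.443). The calls for Ccnb2, Ccnd3 and Ccnd1 were kept in all 14 fits.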

How the results depend on the processing

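Of the 135 results for single genes, none changed direction while called under any alternative. The number of members whose hypoxia effect differed between the double mutant and GLAD (4) was 2 with no filter, 2 with no variance trend, 7 with the length and GC trend removed, and 1 to 7 when a library was left out. Between the double mutant and TIN (5) it was 3 with no filter, 3 with no variance trend, 6 with the length and GC trend removed and 3 to 5 with a library left out. In normoxia, TIN differed from GLAD in 7 members and in 3 to 7 with a library left out, and the double mutant from GLAD in 1, in 2 with only the groups compared and in 1 to 2 with a library left out. A lone library is then assumed to vary like the other groups.

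The replicate letters showed no pairing shared by all groups: over 21 pairs of groups, same-letter correlations ran from −0.0959 to 0.161. Of these, 3 were above 0.1, and the highest was between GLAD in normoxia and GLAD in hypoxia. The replicate block changed 1 call of a member, Ccne2 between the double mutant and GLAD (0.485, adjusted p = 0.029).

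Over all genes, 2349 differed in hypoxia effect between the double mutant and GLAD, and 1442 to 3633 with a library left out. Between the same mutants in normoxia 5760 differed, and 3802 without GLAD normoxia library A. Removing the length and GC trend moved the double mutant against TIN in normoxia from 7863 calls with 3697 higher to 8987 with 3262 higher. These causes were not tested.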
